A study of Homo sapiens with 6 samples.

Results

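The 10 genes described here encode the NF-kB transcription factor subunits (NFKB1, NFKB2, REL, RELA and RELB), 3 inhibitors of the pathway that NF-kB itself induces (NFKBIA, NFKBIE and TNFAIP3), and 2 protective target genes (BIRC3 and SOD2). They were taken by symbol from the deposited table, which lists 35268 named genes, and all 10 were found. Rh30 is an established cell line of fusion-positive rhabdomyosarcoma, a pediatric tumor of impaired muscle differentiation driven by the PAX3-FOXO1 fusion protein. YK-4-279, a small molecule first described as an inhibitor of an ETS family fusion protein, was given to 1 group at 1 µM in DMSO for 24 hours, and the control group received the vehicle DMSO for the same time. Poly(A) RNA was sequenced from 3 libraries in each group, all from this single line, and the comparison asks how the drug changed gene expression. The labels do not say whether the replicates were separate cultures, so p-values measure only the spread between these libraries, which may be technical.

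NF-kB factors are dimers of the 5 subunits. In unstimulated cells IkB proteins such as those encoded by NFKBIA and NFKBIE hold the dimers in the cytoplasm. Ligands such as tumor necrosis factor activate the IkB kinase complex, the inhibitors are degraded, and the released dimers bind kB motifs in DNA. Among the genes they switch on are their own inhibitors, which closes a negative feedback loop. TNFAIP3 encodes A20, a ubiquitin-editing enzyme that shuts off signaling upstream of the kinases. A separate, slower arm runs through the kinase encoded by MAP3K14 and the processing of NFKB2, and is held back by TRAF3.

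The libraries held between 16724650 and 24677433 reads on named genes. Values below are normalized counts, in which the reads of a gene are divided by a factor of its library. DMSO replicate 1 had the lowest depth and the lowest mean correlation with the other libraries across genes, at 0.989 against 0.992 to 0.993, and mitochondrial genes took 6.05% of its reads against 4.74% to 5.03% elsewhere. Of 8 muscle tumor markers 7 were expressed above a mean of 10, with a summed level of 91200 to 106088 in DMSO and 97486 to 102393 with the drug, and MYF6 had at most 1 read per library. Of the 7 markers tested, 3 were above 0 and 4 below in log2 fold change, with a median of -0.01. MYOG and DES lay higher in all 3 drug-treated libraries than in the DMSO libraries but did not pass the test, at 0.23 and 0.14 on the log2 scale (adjusted p of 0.224 and 0.255 by limma). Both were lowest in DMSO replicate 1, which deviated by -0.45 and -0.16 from the mean of the other DMSO libraries on that scale. The 12 leukocyte, endothelial and epithelial markers summed to 171 to 190 in DMSO and 186 to 246 with the drug, with CD68 listed at 0 in every library. The summed ranges overlap. CD14, a marker of the same myeloid cells, had 3, 12 and 10 reads in the DMSO libraries and 27, 16 and 15 with the drug, without overlap, and 1.20 on the log2 scale (95% limits of 0.30 and 2.11, adjusted p = 0.140 by limma). The part of any of these differences in the results was not tested. As these are bulk samples, fewer cells that express a gene cannot be told apart from less RNA per cell.

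Of the 10 genes, 9 passed the filter of a mean of at least 10 normalized counts, and TNFAIP3 alone among these 9 passed the test of the drug. Its level rose by 20.8%, from 2154 ± 34.8 to 2601 ± 41.8 normalized counts (SD, n = 3 each). The other 8 genes tested did not pass the threshold, with log2 fold changes between -0.18 and 0.10. An adjusted p-value under 0.05 was reached by 1 of these 9 genes, against 3.41% of the 13930 genes tested over the whole table, 1.26% higher and 2.15% lower. The median log2 fold change of the 9 genes was 0.01, beside -0.01 over all genes tested. A single call among 9 genes says nothing particular about the set. For the other 8, limma, edgeR and DESeq2 each made 0 calls, and 0 had an unadjusted limma p-value under 0.05, against 18.7% of all genes tested.

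**Figure D1:**
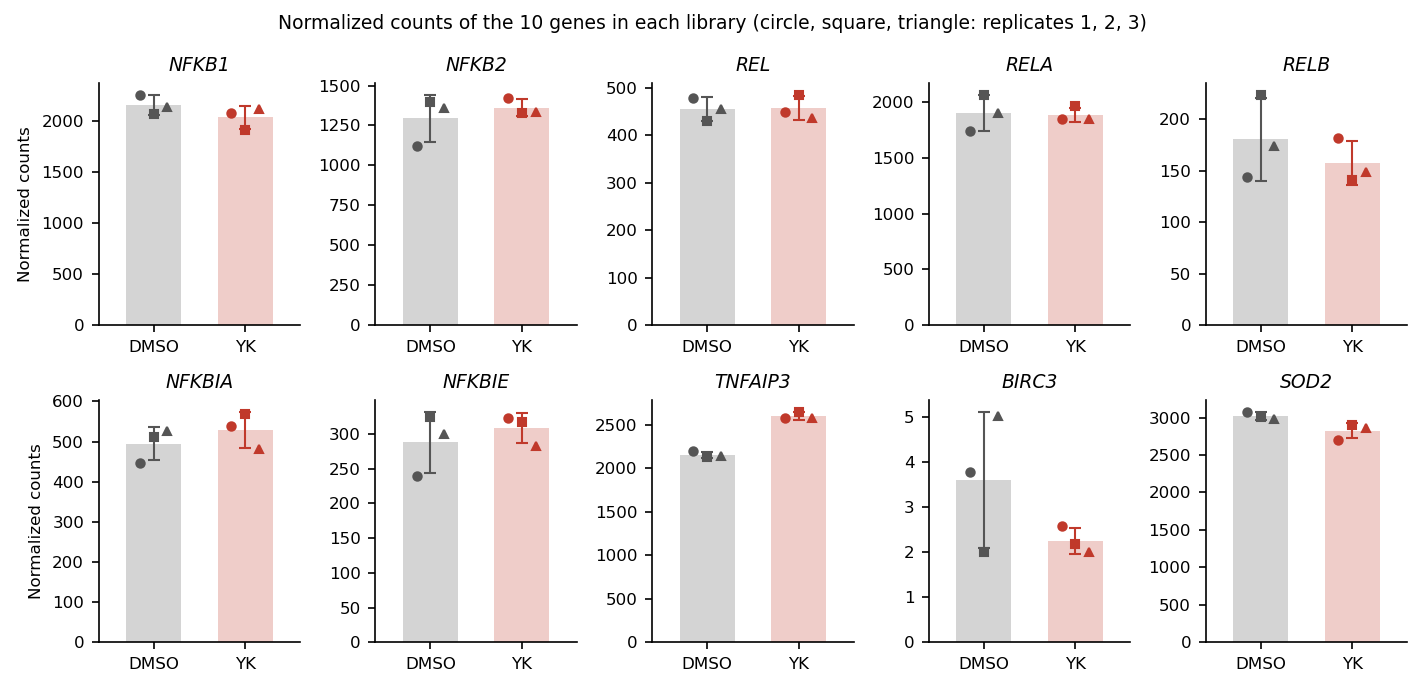
Normalized counts of the 10 genes (y axes, each from 0) in DMSO (gray) and YK-4-279 treated (red, YK) libraries, with bars for the mean, error bars for the SD and symbols for replicates 1, 2 and 3. The 3 TNFAIP3 values with the drug, from 2572 to 2649, all lie above the DMSO values, which reach 2194. BIRC3 stays at or below 5.01.

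To show the letters that NF-kB dimers recognize, the 200 bases upstream of the RefSeq start sites (GRCh38.p14) are given for the gene that rose, for the inhibitor most often used as a readout of the pathway, and for the gene that was almost silent. Capitals mark matches, on either strand, to the kB consensus motif of 10 bases, where overlapping matches would be counted apart. The TNFAIP3 window lies at chr6:137867059-137867258 on the plus strand, the NFKBIA window at chr14:35404750-35404949 on the minus strand and the BIRC3 window at chr11:102317284-102317483 on the plus strand.
TNFAIP3: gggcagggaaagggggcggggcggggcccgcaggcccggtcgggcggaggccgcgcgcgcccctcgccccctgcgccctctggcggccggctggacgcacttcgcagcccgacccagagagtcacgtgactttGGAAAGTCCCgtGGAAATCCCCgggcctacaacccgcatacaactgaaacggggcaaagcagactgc
NFKBIA: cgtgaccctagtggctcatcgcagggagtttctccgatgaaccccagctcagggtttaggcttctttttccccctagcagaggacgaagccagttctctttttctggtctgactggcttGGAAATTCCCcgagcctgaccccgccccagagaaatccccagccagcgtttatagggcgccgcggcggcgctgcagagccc
BIRC3: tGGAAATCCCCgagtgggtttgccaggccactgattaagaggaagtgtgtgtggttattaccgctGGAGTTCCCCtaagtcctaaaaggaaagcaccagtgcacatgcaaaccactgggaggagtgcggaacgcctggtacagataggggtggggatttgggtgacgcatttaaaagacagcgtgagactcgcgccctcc

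TNFAIP3 held 2 matches in tandem, GGAAAGTCCC from 67 to 58 bases and GGAAATCCCC from 55 to 46 bases upstream of the start. NFKBIA held 1, GGAAATTCCC, from 81 to 72 bases upstream. BIRC3 held 2, and the first of them has the same 10 letters as the second site of TNFAIP3. Promoter windows of 300 bases were at hand for 8 of the 10 genes, and 6 of these 8 (NFKB1, NFKB2, REL, NFKBIA, TNFAIP3 and BIRC3) had a match in at least 1 window, against 17.2% of the 10946 genes tested that had a window and 11.3% of all 35116 windows. The windows of RELA and SOD2 had none of these letters. The 10 genes were chosen as members and known targets of the pathway, so this share is a description of that choice. A match is a description of the letters and was not tested for binding, and the genes that carried matches included the gene that rose, genes that did not pass the test and a gene with hardly any reads.

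TNFAIP3 lies on chromosome 6 from 137867214 to 137883314 of hg38, on the plus strand. The vehicle libraries held 2194, 2129 and 2139 normalized counts, and the libraries with the drug 2572, 2649 and 2582, in the order of replicates 1, 2 and 3 that is kept throughout. All 3 drug-treated libraries were above all 3 DMSO libraries, with a gap of 378 normalized counts between the groups, and the coefficient of variation was 1.62% in DMSO and 1.61% with the drug. The log2 fold change was 0.27 (standard error, SE, 0.06, 95% limits of 0.15 and 0.39, adjusted p = 0.0212 by limma), which placed the gene at rank 202 of the 13930 genes by p-value. A larger absolute log2 fold change was measured in 17.1% of the genes tested. Without DMSO replicate 1 the value was 0.29 (adjusted p = 4.2e-06 by limma). The call was lost without DMSO replicate 3 or any drug-treated library, at 0.26 to 0.28 (adjusted p from 0.0796 to 0.148 by limma), and also under eBayes without trend (adjusted p = 0.113 by limma) and with the replicate number as a block (adjusted p = 0.0769 by limma), while the size stayed between 0.25 and 0.32 in all 17 other fits.

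**Figure D2:**
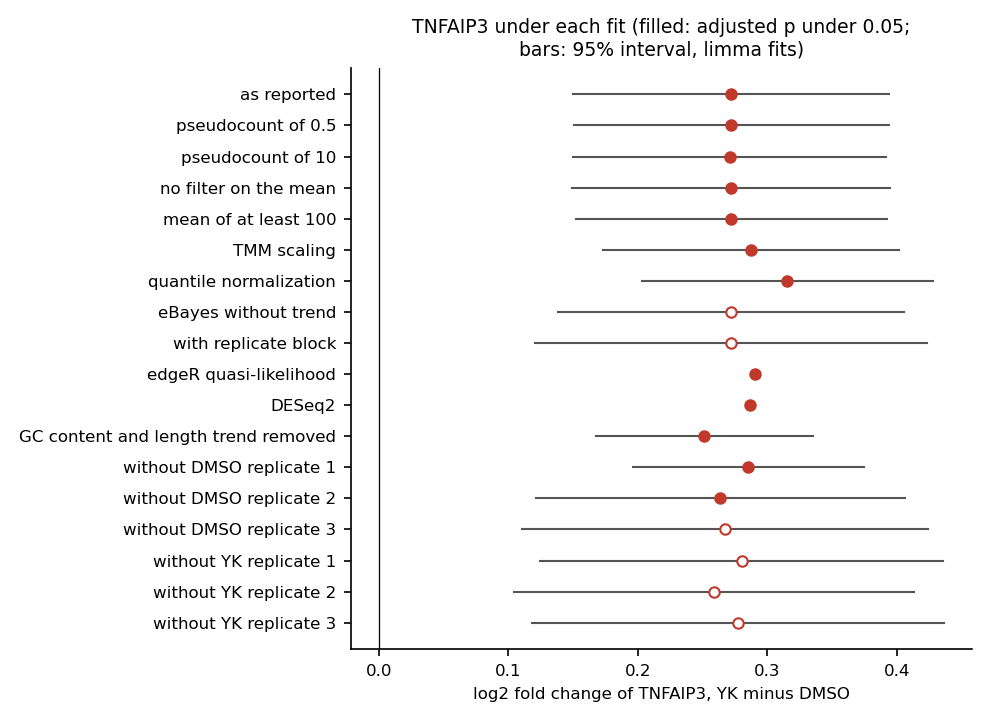
log2 fold change of TNFAIP3 (x axis, drug minus DMSO) in the reported fit and the 17 alternatives (y axis). Filled points have an adjusted p-value under 0.05, and bars are 95% confidence intervals of limma. All points lie between 0.25 and 0.32, and 6 of the alternatives are open points.

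The long noncoding RNA gene WAKMAR2 runs on the opposite strand, from 137823673 to 137868233, and overlaps the start of TNFAIP3 by 1020 bases. It had 1120, 1132 and 1107 normalized counts in the DMSO libraries and 1139, 956 and 1129 in the drug-treated libraries. The groups overlapped, with a log2 fold change of -0.06 (SE 0.08, adjusted p = 0.696 by limma). Library preparation kept the strand, but the strand setting of the counting is not given in the sources used here, so reads in the shared stretch may have been left out or shared. Among the 11 other genes tested within 1 Mb of TNFAIP3, WAKMAR2 included and in a window chosen after the values were seen, limma, edgeR and DESeq2 called 0, and 1 had an unadjusted limma p-value under 0.05. This was ARFGEF3, 279 kb away, at 0.22 (adjusted p = 0.152 by limma).

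The inhibitors that bind the NF-kB dimers themselves did not pass the test. NFKBIA, which encodes IkB-alpha and lies on chromosome 14 at bases 35401079 to 35404749, had 448, 511 and 525 normalized counts with DMSO and 539, 568 and 480 with the drug. Drug-treated replicates 1 and 2 were above all DMSO libraries and the last was between them. The log2 fold change was 0.10 (95% limits of -0.10 and 0.30, adjusted p = 0.612 by limma), and it was 0.03 without DMSO replicate 1, 0.04 without drug-treated replicate 2 and 0.17 without drug-treated replicate 3. NFKBIE, which encodes IkB-epsilon and lies on chromosome 6 at bases 44258166 to 44265788, had 240, 325 and 300 normalized counts with DMSO and 323, 317 and 283 with the drug. Apart from the low value of DMSO replicate 1, its libraries lay close together, and the log2 fold change was 0.10 (95% limits of -0.15 and 0.36, adjusted p = 0.672 by limma). Without that library it was -0.02. Both intervals contain 0.27, the size of the TNFAIP3 change, so a change of that size lies within their error. Whether TNFAIP3 differed from them in its response was not tested.

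RELA and NFKB1 encode p65 and the p105 precursor of p50, which form the most common dimer. RELA (chromosome 11, bases 65653599 to 65663090) had 1740, 2066 and 1901 normalized counts with DMSO and 1851, 1959 and 1843 with the drug. Every drug-treated value lay inside the range of the DMSO values, and the log2 fold change was -0.01 (95% limits of -0.16 and 0.14, adjusted p = 0.958 by limma). NFKB1 (chromosome 4, bases 102501330 to 102617302) had 2257, 2064 and 2138 normalized counts with DMSO and 2076, 1907 and 2114 with the drug. Only drug-treated replicate 2 was below all DMSO libraries. Its log2 fold change was -0.08 (95% limits of -0.22 and 0.06, adjusted p = 0.522 by limma), and it was -0.05 without DMSO replicate 1 and -0.04 without drug-treated replicate 2. For these genes a rise as large as that of TNFAIP3 lies outside the interval.

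NFKB2, which encodes the p100 precursor of p52, and RELB, the partner of p52 in the slower arm, were less precisely measured. NFKB2 (chromosome 10, bases 102394110 to 102402524) had 1122, 1400 and 1359 normalized counts with DMSO and 1423, 1329 and 1335 with the drug, a log2 fold change of 0.08 (95% limits of -0.10 and 0.26, adjusted p = 0.644 by limma). Its lowest value was again that of DMSO replicate 1, and without that library the log2 fold change was -0.02. RELB (chromosome 19, bases 45001461 to 45038192) had 144, 224 and 174 normalized counts with DMSO and 182, 141 and 149 with the drug. The groups overlapped, with a coefficient of variation of 22.4% in DMSO, from 114 to 224 reads per library. The log2 fold change of RELB was -0.18 (95% limits of -0.52 and 0.16, adjusted p = 0.579 by limma), and leaving out 1 library gave values from -0.33 without DMSO replicate 1 (adjusted p = 0.0904 by limma) to -0.01 without DMSO replicate 2 (adjusted p = 0.969 by limma). It was -0.29 without drug-treated replicate 1 and -0.11 without drug-treated replicate 2. REL, which encodes c-Rel and lies on chromosome 2 at bases 60881491 to 60931612, had 479, 430 and 456 normalized counts with DMSO and 449, 486 and 437 with the drug. These values were fully mixed between the groups, with a log2 fold change of 0.01 (95% limits of -0.18 and 0.19, adjusted p = 0.976 by limma).

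**Figure D3:**
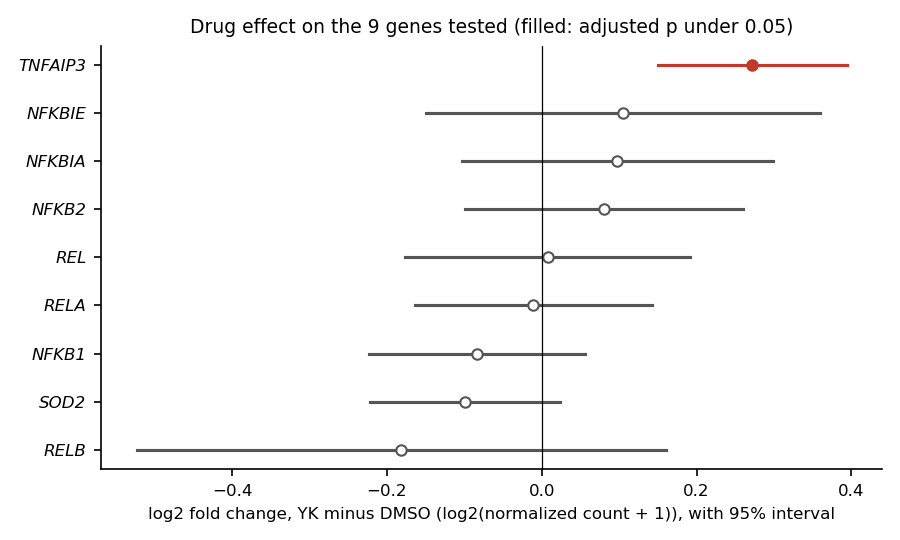
log2 fold change (x axis, drug minus DMSO, on log2(normalized count + 1)) of the 9 genes tested (y axis), with 95% confidence intervals from limma. TNFAIP3 at 0.27 is the only filled point, past an adjusted p-value of 0.05, and the intervals of the other 8 genes include 0, from -0.18 for RELB to 0.10 for NFKBIE.

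Per kilobase of the canonical GENCODE transcript, the subunits stood in the same order in both groups. With DMSO, RELA had 756 ± 64.8 normalized counts per kilobase, NFKB1 531 ± 24.0, NFKB2 429 ± 49.8, RELB 79.9 ± 17.9 and REL 41.0 ± 2.23 (SD, n = 3 each). With the drug these levels per kilobase were 749 ± 25.8 for RELA, 501 ± 27.2 for NFKB1, 452 ± 17.5 for NFKB2, 69.7 ± 9.49 for RELB and 41.2 ± 2.28 for REL. No value of a subunit over the 6 libraries overlapped that of its neighbor except between NFKB1, from 470 to 557, and NFKB2, from 372 to 472. Within each library RELA made up 41.1% ± 1.26 (SD, n = 3) of the summed subunit level per kilobase under DMSO and 41.3% ± 1.79 under the drug (SD, n = 3), and RELB and REL together a small remainder, at 4.32% and 2.24% with DMSO. The order was the same with the median length of each gene's coding transcripts, although the RELA share was then 69.2% with DMSO, so that the shares depend on the transcript chosen.

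The 2 protective target genes were at opposite ends of the range. SOD2 encodes the manganese superoxide dismutase of mitochondria and was the highest of the set in normalized counts, which were 3077, 3001 and 2985 with DMSO and 2706, 2894 and 2865 with the drug. All 3 drug-treated libraries lay below all 3 DMSO libraries, with a gap of 91.2 normalized counts, but the change did not pass the test, with a log2 fold change of -0.10 (95% limits of -0.22 and 0.02, adjusted p = 0.378 by limma). Non-overlap was common over the whole table, where 15.1% of the genes tested had all drug-treated values below all DMSO values and 10.9% had them above. In GENCODE the SOD2 gene, on chromosome 6 from 159669069 to 159762529 on the minus strand, overlaps WTAP and ACAT2 on the opposite strand, and its own counts can depend on how shared reads were assigned. BIRC3, which encodes the apoptosis inhibitor cIAP2 and lies on chromosome 11 at bases 102317484 to 102339403, had 3, 2 and 6 reads with DMSO and 3, 2 and 2 reads with the drug. It did not reach the filter of the reported fit. With no filter on the mean, 10 genes of the set were tested and TNFAIP3 was again the only call. A drug effect on so few reads could be missed.

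The wider pathway was described with 125 genes in 10 lists by role, of which 89 had a mean of at least 10. Of these 89 genes, 1 was higher and 2 were lower at an adjusted p-value under 0.05, a share of 3.37% against 3.41% of all genes tested. The median log2 fold change was 0.00, with 45 genes above and 44 below 0, beside 6684 above and 7246 below of all 13930 genes tested. None of the 10 ligand genes was tested, since none exceeded 8 reads in any library, and TNF, which encodes tumor necrosis factor, was listed at 0 in all 6. Of 36 other target genes, mainly cytokines, adhesion molecules and survival factors, 17 were below the filter, with at most 13 reads in any library. IL6 was listed at 0 throughout.

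Receptors were represented by 6 of 12 genes tested, with a median log2 fold change of 0.06. TNFRSF12A, the receptor for the ligand TWEAK, had 606, 1016 and 914 normalized counts with DMSO and 1220, 1216 and 1240 with the drug, and rose by 0.57 on the log2 scale (SE 0.14, adjusted p = 0.0416 by limma). All drug-treated libraries were above the DMSO libraries and close together, while DMSO replicate 1 was far below the other controls. Without that library the log2 fold change was 0.35 (adjusted p = 8.6e-06 by limma), so 1 library moved the size by more than 1.5 times. Among 20 adaptors, all tested, the median was -0.01. TRAF3, which keeps the MAP3K14 kinase low, had 1389, 1419 and 1450 normalized counts with DMSO and 1202, 1192 and 1167 with the drug, with no overlap, and fell by 0.26 on the log2 scale (SE 0.06, adjusted p = 0.0393 by limma). The call of TRAF3 was lost in 10 of the 17 other fits, including those without DMSO replicate 2 or 3 or any drug-treated library (adjusted p up to 0.193 in limma).

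Of the 44 genes tested in the kinase, IkB degradation, IkB-like, A20 partner, apoptosis inhibitor and antioxidant lists, 0 passed the threshold in limma, against 3.41% of all genes tested, and 9 (20.5%) had an unadjusted p-value under 0.05, against 18.7%. On the recovered reads edgeR called 0 and DESeq2 called 1, TXNRD2. The kinase list, with 6 genes tested, ranged from -0.17 to 0.33 in log2 fold change. At a mean of at least 100, CHUK and MAP3K14 had the largest changes, -0.17 and 0.14 (adjusted p of 0.245 and 0.596 by limma). The 4 genes of the machinery that degrades IkB were below 0, as were 7246 of all 13930 genes tested, with BTRC and CUL1 at -0.20 and -0.17 (adjusted p of 0.0875 and 0.278 by limma). Of the 8 IkB-like and nuclear regulators, NFKBIZ and COMMD1 had 0.25 and 0.11 (adjusted p of 0.227 and 0.581 by limma). Of the 10 tested A20 partners and deubiquitinases, which act beside TNFAIP3, OTUD7B and TNIP2 had 0.26 and 0.21 (adjusted p of 0.0969 and 0.372 by limma), and the median of that list was -0.01. Among the relatives of BIRC3, BIRC7 had at most 2 reads and NAIP at most 16 in any library. BIRC5, a mitotic member of the family, had 6383 ± 339 and 5800 ± 329 normalized counts with DMSO and the drug. XIAP had 3048 ± 146 and 2918 ± 81.3 (SD, n = 3 each). The log2 fold changes of BIRC5 and XIAP were -0.14 and -0.06 (adjusted p of 0.253 and 0.613 by limma). BIRC6 and BIRC2, the latter listed with the adaptors, had means of 6604 and 684 with DMSO and 6646 and 649 with the drug. Among 12 antioxidant enzymes tested beside SOD2, PRDX5 and TXNRD2 had the largest values at a mean of at least 100, 0.37 and 0.33 (adjusted p of 0.210 and 0.0858 by limma), and the median was -0.04. Leaving out DMSO replicate 1 changed several of these values. PRDX5 was then 0.12, TXNRD2 0.21, TNIP2 0.03, COMMD1 0.05 and CUL1 -0.07. BTRC, NFKBIZ, OTUD7B, BIRC5 and TXNRD2 passed the threshold in that fit, with adjusted p-values from 0.0017 to 0.0292 by limma. PRDX5 was 0.54 without DMSO replicate 2 (adjusted p = 0.0294 by limma), and TXNRD2 was 0.43 without DMSO replicate 3 (adjusted p = 0.0478 by limma). COMMD1 was 0.17 without drug-treated replicate 1 and 0.03 without drug-treated replicate 2. TNIP2 was 0.325 without DMSO replicate 3 (adjusted p = 0.174 by limma), and XIAP was -0.10 without DMSO replicate 2 (adjusted p = 0.382 by limma).

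Of the 19 other target genes tested, 13 were above 0 and 6 below, beside 6684 and 7246 of all 13930 genes tested, with a median log2 fold change of 0.12 against -0.01 over all and a range from -0.42 to 0.72. The groups did not overlap in 6 that were higher and 3 that were lower, against 10.9% and 15.1% of all genes tested. The list was chosen with earlier results of these data known, so these counts describe that choice and are no test. CD83, which encodes a surface protein of activated immune cells, was the only gene of this list past the threshold, and it fell. It had 387, 414 and 462 normalized counts with DMSO and 283, 334 and 324 with the drug, without overlap, and -0.42 on the log2 scale (SE 0.10, adjusted p = 0.0373 by limma). This call was lost in 7 of the 17 other fits, among them those without DMSO replicate 3 or any drug-treated library (adjusted p up to 0.231 in limma). The call of TNFRSF12A was also lost in 7, among them those leaving out any drug-treated library (adjusted p up to 0.236 in limma). TNFAIP3 rose and CD83 fell, and both are targets of NF-kB in immune cells. Each call was lost in some of the other fits, and what these changes say of NF-kB activity was not tested. Without DMSO replicate 1, 13 of the 89 genes passed the threshold, 7 higher and 6 lower, against 13.1% of all genes tested in that fit, and TNFAIP3 was again the only one of the 9 genes above that passed.

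**Figure D4:**
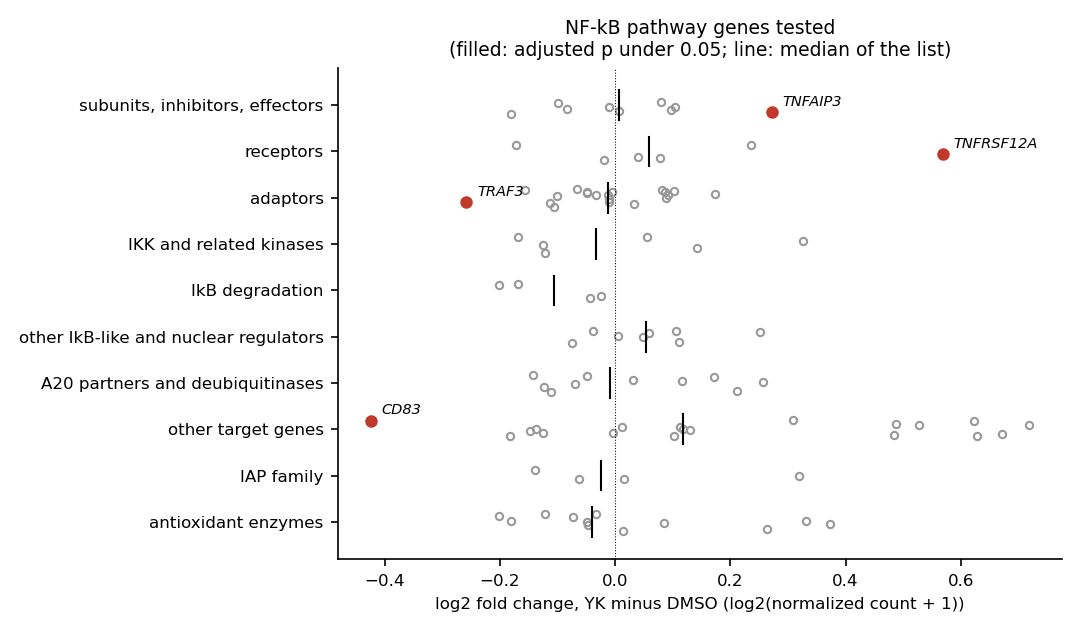
log2 fold change (x axis, drug minus DMSO) of the tested genes of the pathway by list (y axis), one point per gene, with a vertical line at the median of each list. Filled points passed an adjusted p-value of 0.05, namely TNFAIP3 at 0.27, TNFRSF12A at 0.57, TRAF3 at -0.26 and CD83 at -0.42.

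DMSO replicate 1 moved with transcript composition in these genes. Of the 4 genes with a GC content above 55% in their canonical transcript (NFKB2, RELA, RELB and NFKBIE), 4 were lower in DMSO replicate 1 than the mean of the other DMSO libraries, by 0.34 in the median on the log2 scale, while 1 of the 5 genes below that content was lower. Over all genes with a GC content, 3497 of 4138 above 55% were lower in that library, against 2891 of 9477 at or below it. Pearson's r between GC content and this deviation was -0.90 across the 9 genes and -0.51 across 13615 genes, which share the same libraries and are not independent replicates. TNFAIP3, with a GC content of 49.3%, deviated by 0.04. With the trend of each library on GC content and length removed, TNFAIP3 had a log2 fold change of 0.25 (adjusted p = 4.3e-04 by limma) and none of the other 8 genes passed the threshold, with adjusted p-values from 0.131 to 0.946.

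**Figure D5:**
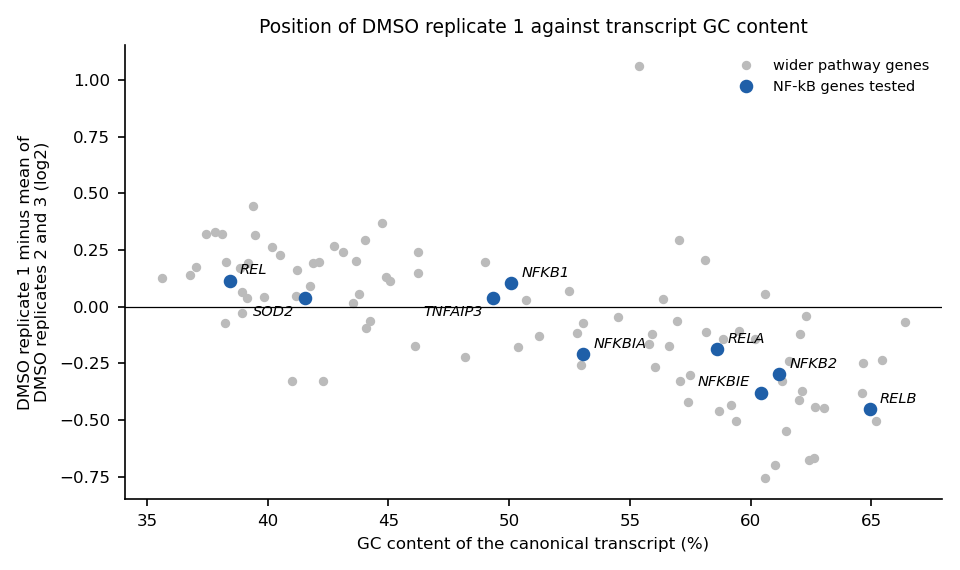
Difference between DMSO replicate 1 and the mean of DMSO replicates 2 and 3 (y axis, log2) against the GC content of the canonical transcript (x axis, percent), for the 9 NF-kB genes tested (blue) and the wider pathway genes (gray). The 4 blue points above 55% GC lie below 0, down to -0.45 for RELB, and TNFAIP3 and SOD2 lie at 0.04.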

How the data were processed

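Gene counts were made by the authors with STAR 2.7.9a on hg38, after trimming with BBDuk. What was deposited is a signal scaled per library, in normalized counts, and the submitters' notes name DESeq2 1.44.0. In each library 100% of values were whole multiples of 1 step (within 0.01), which returned the reads. Of 35269 rows, 1 without a name (at most 6 reads) was left out. limma 3.58.1 (eBayes with trend, two-sided, Benjamini-Hochberg adjustment) was fitted on log2(normalized count + 1) for 13930 genes that reached a mean of 10 normalized counts. This scale understates changes of low genes. Alternatives included counts tests on the reads, in edgeR 4.0.16 (465 calls) and in DESeq2 1.42.0 (635 calls). Positions, lengths and GC content came from GENCODE release 44 (97.7% of the genes tested), and promoters from RefSeq. The code was tested on simulated reads. The 10 genes and all lists were chosen with earlier results of these data known. From each list the text names up to 5 genes past the threshold with a mean of at least 100, or otherwise the 2 with the largest change. For likeness of pattern it names the 3 genes closest to NFKBIA. BIRC2, BIRC6, BIRC7 and NAIP, genes listed at 0, marker genes, overlapping genes and neighbors of TNFAIP3 were named in addition, after their values were seen.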

Additional observations from a re-analysis of the deposited data

How the results depend on the processing

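Precision is limited by 3 libraries per group and by DMSO replicate 1. TNFAIP3 kept its direction in all 17 alternatives and its call in 11. Of the 9 genes 1 was called, but 0 under eBayes without trend and 0 with the replicate block (adjusted p = 0.0769 for TNFAIP3 by limma), and 0 to 1 when a library was left out. Same-numbered libraries did not deviate together across genes (r of -0.098, -0.027 and -0.027). The labels do not say whether the numbers mark a pairing, and these r values cannot decide it. Over all genes 475 were called, against 277 under quantile normalization, 33 under eBayes without trend, 180 with the replicate block and 1959 once the GC and length trends were taken out of each library. The calls ranged from 19 to 1823 when a library was left out (19, 23 and 46 without drug-treated replicate 1, 2 or 3, and 1823 and 242 without DMSO replicate 1 or 3). Higher calls made up 37.1%, against 47.7% under quantile normalization, 90.9% under eBayes without trend and 25.2% with the GC and length trends removed, and 78.9%, 69.6% and 60.9% without drug-treated replicate 1, 2 or 3. For the wider pathway the count of 3 of 89 became 0 under TMM scaling, 1 under quantile normalization and 0 under eBayes without trend. It was 1 with the replicate block and 17 with the GC and length trends removed. Leaving out a library gave 0 to 13 (13 and 5 without DMSO replicate 1 or 2, and 0 without drug-treated replicate 1, 2 or 3). The calls over all genes moved too, to 1959 of 13615 with the GC and length trends removed and 1823 of 13930 without DMSO replicate 1. They were 421 of 13930 under TMM scaling and 676 of 13930 without DMSO replicate 2.

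Directions turned only in genes that were not called. NFKB2 was -0.0063 with the GC and length trends removed, and RELA was 0.0045 under TMM scaling, 0.031 under quantile normalization and 0.0024 in edgeR. Leaving out a library gave -0.019 to 0.14 for NFKB2, -0.036 to 0.046 for REL, -0.073 to 0.050 for RELA, -0.022 to 0.20 for NFKBIE and -0.027 to 0.26 for MAP3K14. The negative values of NFKB2, NFKBIE and MAP3K14 came without DMSO replicate 1. The causes were not tested.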

Other observations

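The 3 genes whose log2 normalized counts followed NFKBIA most closely over the 6 libraries, among 10698 genes with a mean of at least 100, were KHNYN, FOXD4L1 and EFNB1, with Pearson's r of 0.994, 0.992 and 0.988. All were highest in drug-treated replicate 2 and lowest in DMSO replicate 1, as NFKBIA was. They did not pass the test of the drug, with log2 differences of 0.10 to 0.12 (adjusted p from 0.579 to 0.673 by limma), and 142 genes had an r above 0.9 with NFKBIA. The r describes 6 libraries, including their depth and composition, and was given no test.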
